A study of Sus scrofa with 42 samples.

Results

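The step from the 2-cell to the 4-cell stage was followed in embryos of the pig after in vitro fertilization (IVF). All 6 IVF 2-cell and all 9 IVF 4-cell blastomeres of the series were taken, 15 of its 42 single cells. The blastomeres of an embryo were averaged, so that 3 embryos of 4 cells faced 3 embryos of 2 cells. Each 2-cell embryo gave 2 blastomeres, and the 4-cell embryos 1, 2 and 3 gave 3, 2 and 4, so a few of the 4-cell blastomeres were not sequenced. The study compared IVF embryos with embryos made by parthenogenetic activation (PA), in which an electric pulse starts development without sperm. Oocytes came from slaughterhouse ovaries of gilts and were matured in vitro, and blastomeres were taken 27 h (2-cell) and 48 h (4-cell) after incubation with sperm ended, so stage and time in culture cannot be told apart. No in vivo embryo was analysed here, and the embryos did not carry any genetic change.

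A fertilized egg starts with a nearly silent genome and lives on mRNA and protein that the oocyte stored during growth. In the maternal-to-zygotic transition these maternal mRNAs are degraded, largely after shortening of their poly(A) tails, and the genome of the embryo begins to be transcribed. Genome activation comes in a minor and a major wave, and in pigs the major wave is known to fall around the 4-cell stage. Among the first genes to be transcribed in mammalian embryos are often those for the machinery of gene expression itself, such as ribosome biogenesis, splicing and translation.

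Expression was given as FPKM, read fragments scaled to gene length and library size, which compares levels within a cell and does not show whether the total RNA of a cell changed. Between 8857205 and 14961079 reads fell on genes in 2-cell blastomeres and between 5975334 and 15049577 in 4-cell blastomeres. Genes with FPKM above 0 numbered 7017 to 7814 at the 2-cell and 4367 to 7071 at the 4-cell stage. Of the 4-cell blastomeres, 1-1 (embryo 1, blastomere 1) had the fewest reads on genes and held the 4367 genes. Blastomere 3-3 had the most reads on genes and held 6288 genes. Both stood apart from the other 4-cell blastomeres, as described below. Pearson's r of log2(FPKM + 1) had a median of 0.76 between 2-cell sisters (3 pairs) and 0.44 between 4-cell sisters (10 pairs). Between blastomeres of different embryos the median was 0.74 at the 2-cell stage (12 pairs) and 0.38 at the 4-cell stage (26 pairs). The lower r at the 4-cell stage was thus not particular to sisters. Values of overlapping gene pairs are uncertain, since the sources used here do not say whether counting used the strand.

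Upstream sequences are shown for 4 of the genes that were low at the 2-cell stage and rose at the 4-cell stage, since transcription starts beside them. SELENOS encodes selenoprotein S of the endoplasmic reticulum, and TFAM the factor that packages and transcribes mitochondrial DNA. The other 2 have no symbol in the deposited table. ENSSSCG00000034113 (chr9:25500470-25503075, minus strand) overlaps the RefSeq gene for an oocyte form-like elongation factor 1-alpha, a protein that brings aminoacyl-tRNA to the ribosome. ENSSSCG00000028810 (chr9:22965451-22973501, minus strand) overlaps a RefSeq gene like tripartite motif-containing protein 43 (TRIM43), of a family known from genome activation in human embryos. The 250 bases before the RefSeq start, written 5′ to 3′ along the gene on Sscrofa11.1, lie at chr1:139836924-139837173 for SELENOS, chr14:92279732-92279981 for TFAM, chr9:25503085-25503334 for ENSSSCG00000034113 and chr9:22971695-22971944 for ENSSSCG00000028810, all on the minus strand. In ENSSSCG00000028810 and SELENOS this start lies inside the gene as the table places it. Capitals mark exact matches, on either strand, to any of 10 short motifs.
SELENOS: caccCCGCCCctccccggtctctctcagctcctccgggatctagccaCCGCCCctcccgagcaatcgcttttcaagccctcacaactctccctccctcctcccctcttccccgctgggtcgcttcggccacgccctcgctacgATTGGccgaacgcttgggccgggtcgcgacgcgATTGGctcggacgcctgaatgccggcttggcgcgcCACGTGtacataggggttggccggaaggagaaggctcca
TFAM: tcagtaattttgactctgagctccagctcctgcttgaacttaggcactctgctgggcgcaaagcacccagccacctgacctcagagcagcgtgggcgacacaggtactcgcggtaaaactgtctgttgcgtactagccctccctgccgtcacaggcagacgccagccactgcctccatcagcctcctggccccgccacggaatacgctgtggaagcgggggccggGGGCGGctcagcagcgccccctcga
ENSSSCG00000034113, elongation factor 1-alpha oocyte form-like: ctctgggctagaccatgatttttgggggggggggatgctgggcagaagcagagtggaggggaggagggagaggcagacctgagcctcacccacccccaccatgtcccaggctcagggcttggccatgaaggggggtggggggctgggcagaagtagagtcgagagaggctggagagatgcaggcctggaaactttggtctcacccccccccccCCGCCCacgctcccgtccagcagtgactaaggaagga
ENSSSCG00000028810, TRIM43-like: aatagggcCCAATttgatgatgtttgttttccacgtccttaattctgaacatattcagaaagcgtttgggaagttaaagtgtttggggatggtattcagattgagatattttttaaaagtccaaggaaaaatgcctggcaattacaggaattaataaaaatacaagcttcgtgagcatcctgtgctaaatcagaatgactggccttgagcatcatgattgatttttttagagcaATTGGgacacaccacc
The motif CCAAT, the box bound by NF-Y, was matched in SELENOS and in the TRIM43-like gene, and the GC box GGGCGG in SELENOS, TFAM and the elongation factor gene. SELENOS also held the E-box CACGTG. In windows of 250 bases before to 50 after the start, CCAAT was held by 25 of 48 genes that rose (52.1%), 17 of 40 that fell (42.5%) and 38.2% of all 7875 tested genes with a window. GGGCGG was held by 66.7% of the genes that rose, 72.5% of those that fell and 61.7% of all. The octamer ATGCAAA was found in none of the 48, in 3 of the 40 and in 3.1% of all. TAATCC, bound by OTX factors, was found in 2 of the 48, in 3 of the 40 and in 5.35% of all, and TATAAA in 4, in 5 and in 8.15%, respectively. CACGTG was held by 10.4%, 7.5% and 9.9%, ACTTCCG of ETS factors by 16.7%, 15% and 12.1%, ATGGCGG of YY1 by 6.25%, 2.5% and 6.49%, GCATGCG of NRF1 by 8.33%, 2.5% and 5.8%, and TGACGTC, the cAMP response element, by 2.08%, 5% and 5.45%. These shares are descriptions without a test.

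Which genes rose and which fell was tested with limma on log2 of an embryo's mean FPKM + 1. Of 8116 genes tested, 90 were called (1.11%), which means an adjusted p under 0.05 with the level changing 2-fold or more. Of these 50 rose (0.616% of the genes tested) and 40 fell (0.493%). All values of the 3 4-cell embryos lay above those of the 3 2-cell embryos in each of the 50, and below them in each of the 40. Over all genes tested, 5.98% lay above without overlap and 14.3% below. The 50 rose by a median of 4.19 on the log2 scale, and 31 of them were under 1 FPKM in every 2-cell embryo. With scaling by median ratios, in place of the FPKM as deposited, 51 genes rose and 4 fell, and the median change of all genes moved from -0.23 to 0.19, so the count of falling genes depended on the scaling. Of the 50 rising genes 30 kept their call with it, and of the 40 falling genes 4. Among the rising genes that lost it were POLR2B (adjusted p = 0.16), POLR2F (0.116), UBXN7 (0.114), RTF1 (0.113), ENSSSCG00000033084 (0.0883), RPS3A (0.0853), TAF1D (0.0695), EIF4A3 (0.065), EMG1 and EEF1B2 (both 0.0566) and RBM25 (0.0543). With only the 2-cell and 4-cell IVF embryos in the limma fit, 0 genes passed, and 906 had an unadjusted p below 0.05.

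The elongation factor gene ENSSSCG00000034113 rose the most. Its FPKM were 1.03, 1.52 and 2.02 in the 2-cell embryos and 164, 3875 and 3885 in the 4-cell embryos, a log2 fold change of 9.09 ± 0.95 (SE, adjusted p = 4.34e-05). Each SE and p-value of limma, here and below, rests on a spread pooled over the groups of method and stage. The 8-cell groups have 1 embryo each and add nothing to it. This pooled spread can understate the spread among the 4-cell embryos, whose SD for this gene was 2146 FPKM, against 0.495 FPKM among 2-cell embryos. The 6 2-cell blastomeres lay between 0.265 and 2.25 FPKM, and 7 of the 9 4-cell blastomeres exceeded them, with a highest value of 9490 FPKM. CDV3 followed with 6.26, 40.2 and 12 FPKM at the 2-cell and 198, 6918 and 4174 FPKM at the 4-cell stage (log2 fold change 6.83 ± 1.06, adjusted p = 0.00199). In both genes the 4-cell embryo 1 was far below the other two, and still above every 2-cell embryo.

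SELENOS stood at 0.076, 0.128 and 2.84 FPKM in 2-cell and at 63.1, 177 and 243 FPKM in 4-cell embryos (log2 fold change 6.40 ± 0.74, adjusted p = 0.000104). RBM7, an RNA-binding subunit of the complex that directs the nuclear exosome to its targets, went from at most 0.153 FPKM in any 2-cell embryo to 38.9, 134 and 104 FPKM (6.23 ± 0.90, adjusted p = 0.00121). For TFAM the 2-cell embryos had 0.0195, 0.0466 and 0.0499 FPKM and the 4-cell embryos 20.8, 111 and 100 FPKM (5.92 ± 0.68, adjusted p = 0.000104). At most 7 reads of TFAM were found in a 2-cell blastomere, and up to 14647 in a 4-cell blastomere. RBM7 and TFAM were thus near 0 in every 2-cell blastomere, while SELENOS reached 4.91 FPKM in the highest.

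Genes without a symbol in the table were also among the 12 largest rises. ENSSSCG00000002968, like F-box only protein 27 by RefSeq, had at most 0.312 FPKM in a 2-cell embryo and 44.6, 62.9 and 147 FPKM in the 4-cell embryos (6.08 ± 0.60, adjusted p = 3.71e-05). ENSSSCG00000038552 overlaps in part the RefSeq gene for KH homology domain-containing protein 1, a family known from oocytes and early embryos, and had 0, 0.0308 and 0.0676 FPKM at the 2-cell and 21.9, 204 and 58.5 FPKM at the 4-cell stage (5.98 ± 0.77, adjusted p = 0.000406). The TRIM43-like ENSSSCG00000028810 had 3.91, 0.0325 and 0.0816 FPKM and then 32.5, 117 and 150 FPKM (5.58 ± 0.81, adjusted p = 0.00121). For these 3 genes the families were recognised after their values had been seen.

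The other members of the 12 were TMSB10, EMG1, CDC26 and ENSSSCG00000033084. TMSB10, the actin-binding thymosin beta 10, rose by 5.46 ± 0.90 (adjusted p = 0.0043), with 8 of 9 4-cell blastomeres above every 2-cell blastomere. CDC26, a subunit of the anaphase-promoting complex, rose by 5.43 ± 0.72 (adjusted p = 0.000593), and SLC31A1, the copper transporter CTR1 on the other strand of the same locus, by 5.19 ± 0.75 (adjusted p = 0.00121). Their values over the 42 cells had an r of 0.997, so the reads of the 2 genes cannot be told apart. The same holds for EMG1, a ribosome biogenesis methyltransferase (5.48 ± 1.04, adjusted p = 0.0142), with LPCAT3 on the opposite strand (r = 0.994), and for ENSSSCG00000033084 (5.66 ± 1.23, adjusted p = 0.0312) with MYCN (r = 0.961).

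**Figure D1:**
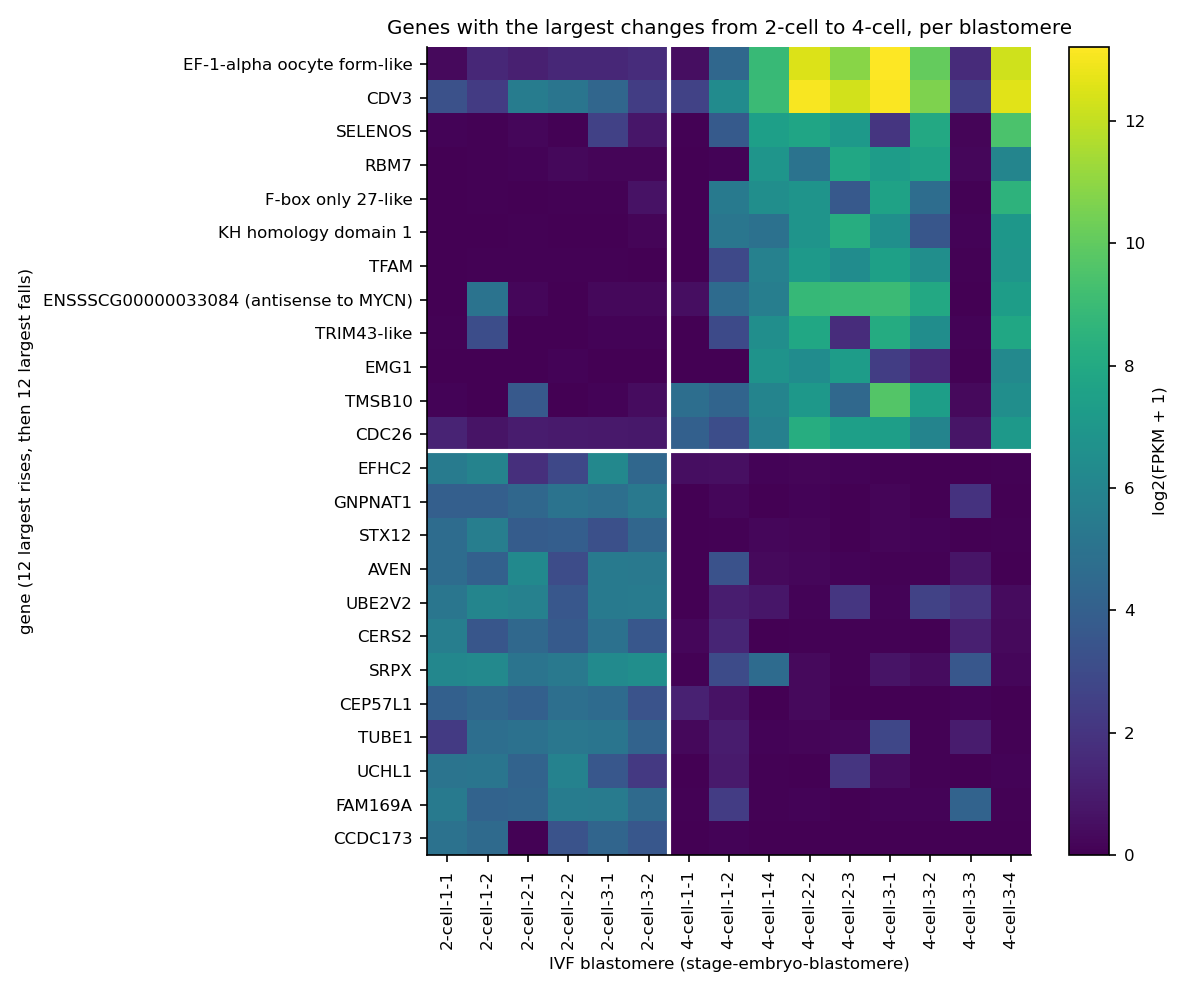
Expression of the 12 genes with the largest rise (upper rows) and the 12 with the largest fall (lower rows) in each of the 15 IVF blastomeres, as log2(FPKM + 1), with 2-cell blastomeres on the left and 4-cell blastomeres on the right of the white line. The 4-cell blastomeres 1-1 and 3-3 are dark in most of the upper rows, and the 9 4-cell blastomeres are dark in most of the lower rows.

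How firm the calls were differed between the genes that rose and those that fell. Of the 50 genes that rose, 17 were called again whichever of the 6 embryos was left out. They included the first 7 genes of the ranking (ENSSSCG00000034113 to TFAM), ENSSSCG00000028810, TMSB10, CDC26, SLC31A1, TOMM5, NDUFA2, ZNF622, CCNG2 and CLK1. Of the 40 genes that fell, only TRMT2B, a tRNA methyltransferase, was called in all 6 of those fits (4.55, 7.48 and 4.3 FPKM in 2-cell and at most 0.00395 FPKM in 4-cell embryos). The 4-cell embryo 1 was the lowest 4-cell embryo in 37 of the 50 and the highest in 22 of the 40. Without it 435 genes rose (5.36% of the genes tested) and 294 fell (3.62%), the 50 and the 40 among them.

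Genes for the making, processing and translation of RNA were among those that rose. Of 113 splicing genes, 6 rose (5.31%, against 0.616% of all genes tested) and 0 fell, with a median log2 fold change of 0.88 against -0.23 over all genes tested. HNRNPA2B1, a splicing repressor, had 6.97, 4.36 and 4.42 FPKM in 2-cell and 43.3, 210 and 71.7 FPKM in 4-cell embryos (3.84 ± 0.70, adjusted p = 0.0104). CLK1, a kinase of splicing factors, rose by 3.63 ± 0.65 from at most 0.0636 FPKM in a 2-cell embryo to 6.55, 13.3 and 18.7 FPKM (adjusted p = 0.00928). SRRM1 and RBM25, both splicing cofactors, DHX38, a spliceosome helicase, and EIF4A3 of the exon junction complex rose by 3.57, 3.33, 3.36 and 3.46.

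Of 97 genes of ribosome biogenesis, 3 rose (EMG1, TAF1D and RPP40, 3.09% against 0.616%) and 1 fell (1.03% against 0.493%, near the share of all genes). The gene that fell was DIMT1, a dimethyltransferase of ribosomal RNA (-3.17 ± 0.71, adjusted p = 0.0352). TAF1D belongs to the initiation factor of RNA polymerase I and rose by 3.19, and RPP40 to ribonuclease P and rose by 2.05. Among 60 cytosolic ribosomal proteins 2 rose (3.33%), RPS3A (4.83 ± 1.08, adjusted p = 0.0346) and RPLP1 (4.21 ± 0.81, adjusted p = 0.0153), and 58 of the 60 had a positive log2 fold change, against 41.4% of all genes tested. With median-ratio scaling it was 59 of 60 against 58.3%. Summed over the list, ribosomal protein mRNAs were between 111 and 180 FPKM in 2-cell blastomeres. In the 4-cell blastomeres they were at most 207 FPKM in embryo 1 and in blastomere 3-3, and between 741 and 2133 FPKM in the other 5. Without embryo 1, in which these sums were low, 20 of the 60 rose, against 5.36% of all genes tested.

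Of 52 translation factors, EIF4A3 and EEF1B2 rose (3.85%, against 0.616% of all genes tested). EEF1B2, a subunit of the exchange factor for elongation factor 1-alpha, rose by 4.31 ± 0.87 (adjusted p = 0.0218), and its reads overlap those of NDUFS1 on the other strand (r = 0.964). Of 89 genes of the RNA polymerase II machinery 3 rose (3.37%). POLR2B, the second-largest subunit, was at most 0.0278 FPKM in 2-cell embryos and 8.15, 42.2 and 16.5 FPKM in 4-cell embryos (4.23 ± 0.98, adjusted p = 0.0416). It overlaps genes on the other strand, among them NOA1 and IGFBP7 (highest r = 0.906). Its call was kept in 1 of the 6 fits that left out an embryo. RTF1 of the PAF1 complex rose by 3.52, and POLR2F by 1.75, where it overlaps SOX10 (r = 0.904). Of 73 genes of deadenylation and mRNA decay, PABPC1, the cytoplasmic poly(A)-binding protein, rose by 3.82 ± 0.74 (adjusted p = 0.0153), 1 call that is near the share of all genes (1.37% against 0.616%).

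Embryonic transcription factors included 33 tested genes, of which TFAP2C rose (3.03%, against 0.616% of all genes tested) and 0 fell. The list holds 47 genes, and those that did not reach 1 FPKM in 3 cells were not tested. Genes near 0 at the 2-cell stage can pass that filter through their 4-cell values, so the share and median of this list partly depend on it. TFAP2C, a factor of early embryos and trophoblast, had 0.279, 0.184 and 0.0349 FPKM at the 2-cell and 4.19, 70.5 and 34.9 FPKM at the 4-cell stage (4.35 ± 0.93, adjusted p = 0.0283). Its call was kept in 1 of the 6 fits that left out an embryo, and was lost with median-ratio scaling (adjusted p = 0.0765). NANOG, a pluripotency factor, did not pass (4.32 ± 1.22, adjusted p = 0.076), with 0.0133, 145 and 58.3 FPKM in the 4-cell embryos and at most 0.0393 FPKM in the 2-cell embryos. In embryo 1 NANOG stayed within the range of the 2-cell blastomeres, and in embryo 3 it was 9.36 and 224 FPKM in blastomeres 3-1 and 3-4 and under 0.1 FPKM in 3-2 and 3-3. KLF17 had 0.0632, 169 and 86.1 FPKM (4.59 ± 1.33, adjusted p = 0.0864), KLF4 2.65, 206 and 124 FPKM (4.11 ± 1.36, adjusted p = 0.124), and MYC 0.0181, 61.9 and 49 FPKM (3.87 ± 1.42, adjusted p = 0.164) in the 4-cell embryos 1, 2 and 3. In each of them embryos 2 and 3 were high and embryo 1 was near the 2-cell level. Without embryo 1, 10 of the 33 rose, NANOG, KLF17, KLF4 and MYC among them, and 2 fell. In that fit 5.36% of all genes tested rose and 3.62% fell, so the 2 falls are near that share. It leaves out the embryo in which these named genes were low, so the count of rises describes embryos 2 and 3.

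**Figure D2:**
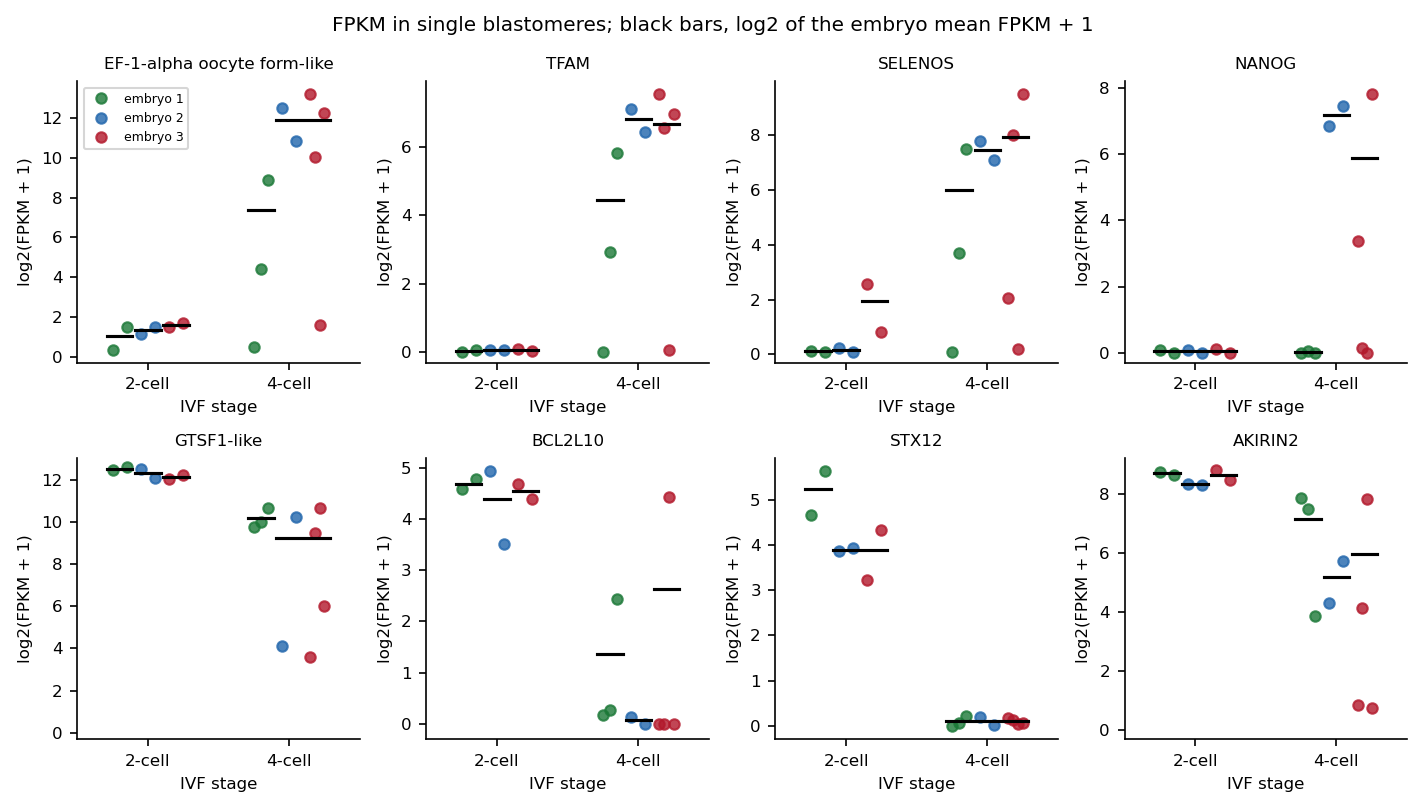
Expression of 8 genes in single IVF blastomeres, as log2(FPKM + 1), with a colour for each embryo and black bars for the embryo means. In the upper row the 4-cell blastomeres of 1 embryo spread from the 2-cell level to the highest values, and NANOG stays at the 2-cell level in embryo 1, while in the lower row STX12 is near 0 in the 9 4-cell blastomeres.

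Genes for mitochondria were described from nuclear and mitochondrial mRNAs. TFAM was the 1 riser among 21 factors of mitochondrial gene expression (4.76%, against 0.616% of all genes tested). NDUFA2 of respiratory complex I was the 1 riser among 49 nuclear subunits (2.04% against 0.616%), so each share rests on 1 gene. NDUFA2 had 0.0276, 0.185 and 0 FPKM in 2-cell and 28.3, 46.5 and 8.86 FPKM in 4-cell embryos (4.49 ± 0.65, adjusted p = 0.00121). Only 4 of the 9 4-cell blastomeres were above the 2-cell range for NDUFA2. ENSSSCG00000033212, by RefSeq TOMM5 of the outer membrane translocase, rose by 4.50 ± 0.79 (adjusted p = 0.00779) and TIMM50 of the inner membrane translocase by 4.43 ± 0.93 (adjusted p = 0.0273). The 13 mRNAs transcribed from mitochondrial DNA were not called, and 12 of them had a positive log2 fold change (92.3%, against 41.4% of all genes tested). Their share of the summed FPKM was 22.3% ± 6.61 (SD, n = 3) in 2-cell and 32.7% ± 5.66 in 4-cell embryos, a difference of 10.3 percentage points. The embryos of the stages overlapped, with 15.6%, 28.8% and 22.6% against 38%, 26.7% and 33.3%. An exact permutation test gave a two-sided p of 0.2, but 3 against 3 embryos cannot go below 0.1, so it could not pass.

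Among the genes that fell, the most abundant was ENSSSCG00000000296, by RefSeq like gametocyte-specific factor 1, a protein of germ cells. It went from 5883, 5037 and 4522 FPKM to 1167, 603 and 595 FPKM (-2.77 ± 0.53, adjusted p = 0.0153), and each of the 9 4-cell blastomeres was below each 2-cell blastomere. AKIRIN2, a nuclear protein needed for proteasome import, fell from 415, 320 and 403 FPKM to 143, 35.8 and 61.5 FPKM (-2.45 ± 0.54, adjusted p = 0.0319). PARL, a rhomboid protease of mitochondria, fell from 118, 102 and 110 FPKM to 44.1, 20.4 and 20.4 FPKM (-2.01 ± 0.47, adjusted p = 0.0426). In AKIRIN2 and PARL, too, the 9 4-cell blastomeres lay below the 2-cell range.

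The largest falls were in genes at moderate levels. EFHC2 fell by 4.36 on the log2 scale (SE 0.96, adjusted p = 0.0326), from 51.2, 4.4 and 45.5 FPKM to at most 0.315 FPKM. GNPNAT1, an enzyme of the hexosamine pathway, went from 15, 26 and 33.4 FPKM to 0.068, 0.0456 and 0.753 FPKM (-4.30 ± 0.76, adjusted p = 0.00779). STX12, a syntaxin of endosomes, went from 37.1, 14 and 13.8 FPKM to 0.068, 0.0799 and 0.0693 FPKM (-4.25 ± 0.75, adjusted p = 0.00779), and no 4-cell blastomere had more than 13 reads of it. AVEN, an inhibitor of apoptosis, UBE2V2, a ubiquitin-conjugating enzyme variant, CERS2, a ceramide synthase, and SRPX fell by between 4.04 and 4.24. CEP57L1 and TUBE1 (epsilon tubulin), of centrosomes and centrioles, fell by 3.97 and 3.87, with TUBE1 overlapping WISP3 (r = 0.919). FAM169A and CCDC173 both fell by 3.75.

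Of 36 genes for oocyte and egg coat factors, 2 fell (5.56%, against 0.493% of all genes tested) and 0 rose, and the median log2 fold change was -0.75. UCHL1, a ubiquitin hydrolase abundant in oocytes, had 33.7, 36.9 and 7.34 FPKM in 2-cell and 0.325, 1.53 and 0.137 FPKM in 4-cell embryos (-3.83 ± 0.68, adjusted p = 0.00779). BCL2L10, an apoptosis regulator of oocytes, had 24.8, 20.1 and 22.3 FPKM and then 1.58, 0.0475 and 5.17 FPKM (-3.19 ± 0.77, adjusted p = 0.0473). Its value in embryo 3 rested on blastomere 3-3, with 20.7 FPKM, within the 2-cell range of 10.4 to 29.8 FPKM. With median-ratio scaling the median of the 36 was 0.10, against 0.19 over all genes.

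Several abundant transcripts that the study names did not pass. DNMT1, which maintains DNA methylation, stood at 1324, 1142 and 1090 FPKM in 2-cell and at 1018, 545 and 546 FPKM in 4-cell embryos (-0.81 ± 0.38, adjusted p = 0.272). Its direction turned with median-ratio scaling (0.48). BTG4, the adaptor that brings deadenylase to maternal mRNA, had 922, 634 and 1269 FPKM and then 521, 268 and 296 FPKM (-1.39 ± 0.44, adjusted p = 0.114), and PCNA, the replication clamp, 2539, 1442 and 1122 FPKM and then 1210, 46.4 and 392 FPKM (-2.50 ± 0.86, adjusted p = 0.139). ARMC1 changed by -1.13 (adjusted p = 0.101). CDR1 was 435, 375 and 1439 FPKM and then 1633, 3232 and 1652 FPKM (1.74 ± 0.54, adjusted p = 0.104). UHRF2, a relative of the DNMT1 cofactor UHRF1, changed by -1.59 (adjusted p = 0.127), FTL, the ferritin light chain, by 1.05 (adjusted p = 0.213) and the RNA-binding IGF2BP3 by -0.29 (adjusted p = 0.714, 1.13 with median-ratio scaling). Of these, PCNA and IGF2BP3 overlapped between the embryos of the 2 stages and the others did not. Among 8 DNA methylation genes that the study chose on these samples 0 were called, and among 15 tested H3K4 methylation genes also 0. Of all genes tested 1.11% were called, so 0 in lists this small is near that share. Of the H3K4 methylation genes, the one nearest to a call was the demethylase KDM5B, with 5.9, 13.6 and 10 FPKM in 4-cell embryos (3.10 ± 0.83, adjusted p = 0.0642).

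**Figure D3:**
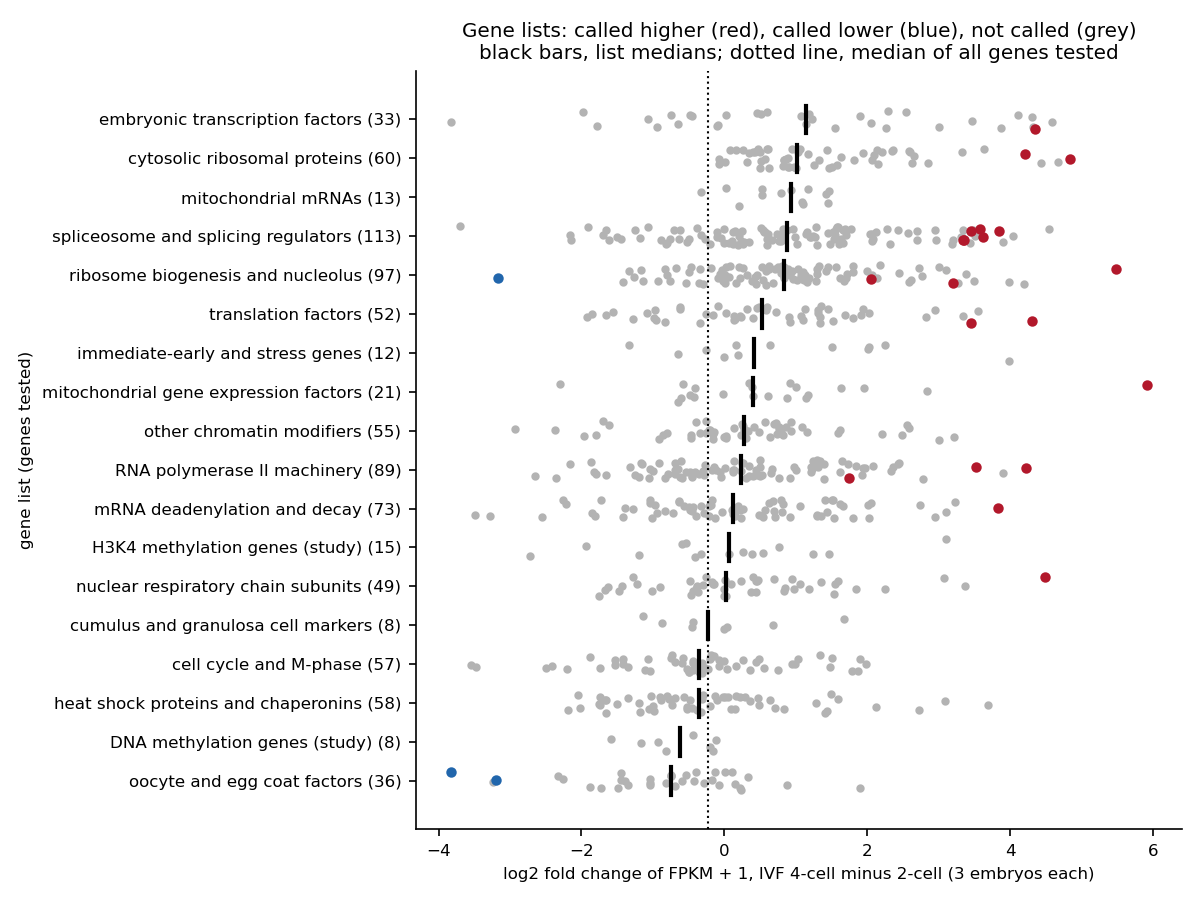
Log2 fold changes (IVF 4-cell minus 2-cell, FPKM + 1) of the tested members of the 18 gene lists with more than 2 tested members (sperm transcripts, with 2 tested and a median of -1.70, are not drawn), sorted by the list median, with the number tested in parentheses. Red and blue points are genes that rose or fell, black bars are list medians and the dotted line is the median of all 8116 genes, at -0.23. Of the lists drawn, embryonic transcription factors have the highest median (1.14) and oocyte factors the lowest (-0.75). Genes near 0 at the 2-cell stage can be tested because of their 4-cell values, so the medians partly depend on the filter.

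Presence and absence were counted next. A gene was taken as newly detected if it was at most 1 FPKM in each of the 6 2-cell blastomeres and at least 10 FPKM in a blastomere of each 4-cell embryo. There were 20 such genes (0.13% of 15351), and 18 of them were among the 50 that rose. Among the 18 were TFAM, RBM7, POLR2B, CLK1, RPLP1, NDUFA2, TIMM50, CCNG2, ZNF622 and UBXN7. Of the 20, ZIM3 and ENSSSCG00000034048 did not pass the test (5.99 and 5.06, adjusted p = 0.0572 and 0.0864). By the reverse rule 8 genes were no longer detected (0.0521%), of which STX12 and ZCCHC7 were called. The rules are not symmetric, since the 4-cell stage had 9 blastomeres and the 2-cell stage 6. The counts of 20 and 8 therefore cannot be set directly against each other. If more than 1 blastomere of each embryo had to be above 10 FPKM, 2 genes were newly detected and 0 no longer detected, and without the 4-cell embryo 1 there were 148 and 45, respectively.

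Blastomeres of the same 4-cell embryo differed in how many of the 50 rising genes they expressed. Blastomere 3-3 was above the whole 2-cell range in 8 of the 50 (16%, against 13.3% of all genes tested), while its sisters 3-1, 3-2 and 3-4 were above it in 44, 39 and 43. In blastomere 3-3 the elongation factor gene ENSSSCG00000034113 was at 2.04 FPKM and CDV3 at 4.41 FPKM, against 1079 to 9490 FPKM and 1626 to 8882 FPKM in the sisters. TFAM was 0.0437 FPKM in 3-3 and 92.6 to 184 FPKM in the sisters. In embryo 1, blastomeres 1-1, 1-2 and 1-4 were above the 2-cell range in 15, 27 and 43 of the 50, and both blastomeres of embryo 2 in 45. Blastomeres 1-1 and 3-3 thus had most of the rising genes at or under the highest 2-cell blastomere. They had the fewest and the most reads on genes among the 4-cell blastomeres, though by the paper's total reads 3-4 was deeper than 3-3. The part of depth or RNA quality in this was not tested.

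Most of the falling genes were below the 2-cell range in those blastomeres as well. Blastomere 3-3 was below the whole 2-cell range in 31 of the 40 (77.5%, against 20.8% of all genes tested) and blastomere 1-1 in 35 (87.5%, against 36.1%). In the other 7 blastomeres the number lay between 29 and 36. UCHL1, at 7.34 to 36.9 FPKM in 2-cell embryos, was 0.0180 FPKM in blastomere 3-3, and STX12 was 0.0292 FPKM. Blastomere 3-3 nevertheless kept more of the falling genes than any other 4-cell blastomere, with 14 of the 40 at 10 FPKM or more, against 1 to 9 in the other 8. Examples, chosen after their values were seen, are DCTPP1, a pyrophosphatase of dCTP, at 32.0 FPKM in 3-3 and 0.0266 FPKM in its sister 3-4, and ATL3, which fuses membranes of the endoplasmic reticulum, at 42.8 and 0.0983 FPKM. DCTPP1 in 3-3 was within the 2-cell range of 9.03 to 38.6 FPKM. The 50 and 40 genes were chosen with these blastomeres in the averages, so the counts describe the blastomeres and are not a test. Without blastomere 3-3, 108 genes rose and 155 fell, without 1-1, 81 rose and 51 fell, and without 1-2, 83 rose and 127 fell. Without 1-4, 25 rose and 32 fell.

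**Figure D4:**
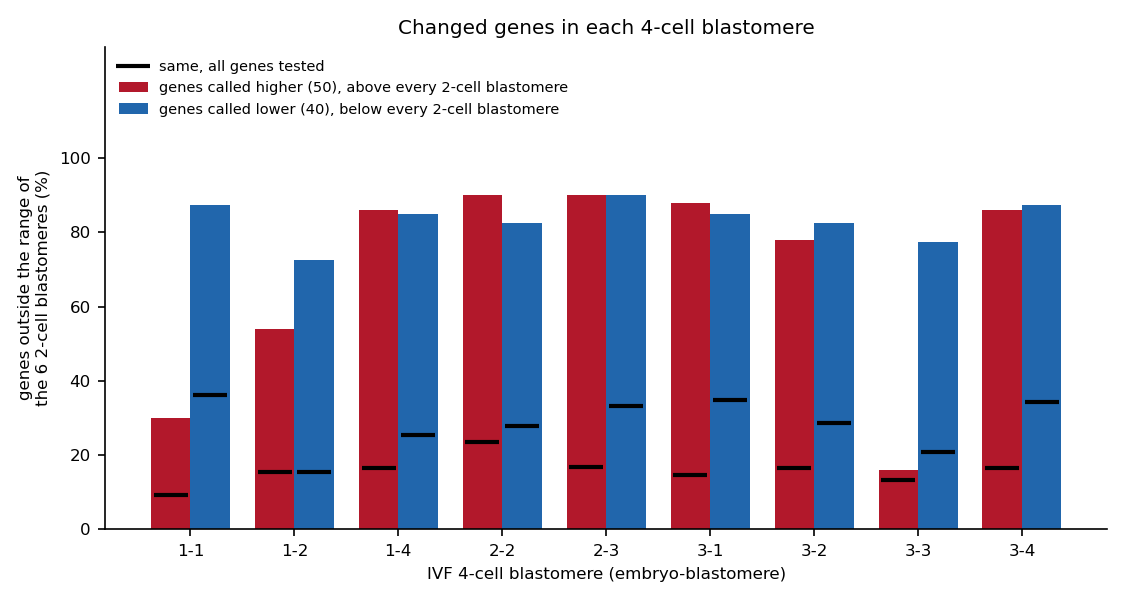
Share of the 50 genes that rose lying above every 2-cell blastomere (red) and of the 40 genes that fell lying below every 2-cell blastomere (blue), in each of the 9 IVF 4-cell blastomeres, with black marks for the same share over all 8116 genes tested. Blastomeres 1-1 and 3-3 have the lowest red bars, at 30% and 16%, and the blue bars are at least 72.5% throughout.

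The same step in PA embryos, which shares no sample with the IVF step, was set beside it. Both steps come from 1 limma fit with the same spread for a gene, so their calls are not independent. Of the 50 genes that rose in IVF embryos, 42 had a positive log2 fold change in PA embryos (84%, against 34.5% of all genes tested) and 15 rose there by the same test (0.382% of all genes tested rose, and 0.394% were called in either direction). TFAM went from 0.621 ± 0.607 FPKM (SD, n = 3) in PA 2-cell to 96.7 ± 18.7 FPKM in PA 4-cell embryos (log2 fold change 5.96, adjusted p = 0.000165). The F-box only 27-like ENSSSCG00000002968 (6.96, adjusted p = 3.93e-06), CDV3 (6.27, adjusted p = 0.00712), the elongation factor gene ENSSSCG00000034113 (6.18, adjusted p = 0.00291) and SELENOS (5.60, adjusted p = 0.000746) rose as well. CCNG2, an atypical cyclin, rose by 3.89 ± 0.57 in IVF embryos (adjusted p = 0.00133), and its PA change was 0.08, but the difference between the steps did not pass for this or any other gene. For the difference of the IVF and PA steps limma called 0 of 8116 genes, and 434 had an unadjusted p below 0.05.

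Of the 40 genes that fell in IVF embryos, 37 had a negative log2 fold change in PA embryos (92.5%, against 62.7% of all genes tested), and 0 fell there by the test (0.0123% of all genes tested fell). The values of PA 4-cell blastomeres 1-4 and 2-1 nearly repeat those of 2 PA 2-cell blastomeres (r = 0.999). Without those 2 cells, 39 of the 40 were negative and 17 fell (6.26% of all genes tested fell), and of the 50 rising genes 40 were positive and 22 rose (1.15%). GNPNAT1, for example, changed by -2.33 in PA embryos (adjusted p = 0.254) and by -4.38 without those cells (adjusted p = 0.000319).

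**Figure D5:**
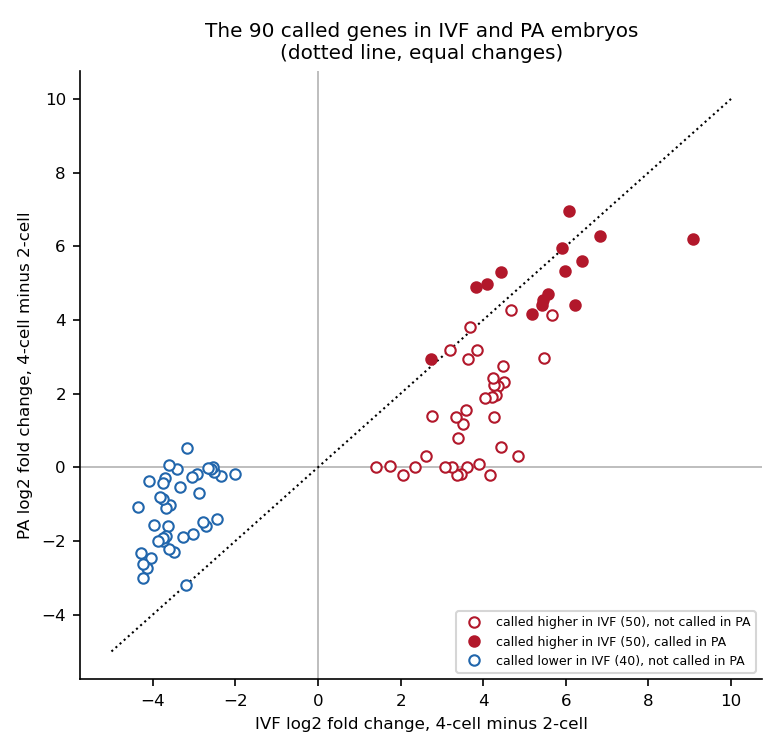
Log2 fold change from 2-cell to 4-cell in IVF embryos (horizontal) and PA embryos (vertical) of the 90 genes called in IVF embryos, red for those that rose and blue for those that fell, filled where also called in PA embryos. Filled red points lie between 2.73 and 9.09 on the horizontal axis, and 37 of the 40 blue points lie below 0 on the vertical axis.

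Levels at the neighbouring stages were read as a description. The median level of the 50 rising genes was 0.0661 to 0.242 FPKM in the 3 IVF 1-cell embryos, 0.0387 to 0.061 FPKM in the 2-cell, 11.9 to 44.4 FPKM in the 4-cell embryos and 14.7 FPKM in the 1 IVF 8-cell embryo. CDV3 was at 13059 FPKM in that embryo, the elongation factor gene ENSSSCG00000034113 at 3426 FPKM and RPS3A at 576 FPKM, while NDUFA2 was at 0.0574 FPKM. The median of the 40 falling genes was 21.2 to 23.6 FPKM in 1-cell, 20.7 to 29.6 FPKM in 2-cell, 0.107 to 1.26 FPKM in 4-cell embryos and 0.227 FPKM in the 8-cell embryo. ENSSSCG00000000296 was at 10.8 FPKM and BCL2L10 was listed at 0 in the 8-cell embryo, whereas STX12 was at 18.1 FPKM.

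Markers of other cells that could have adhered to an embryo were summed at both stages. The 20 cumulus and granulosa cell markers in the table summed to 18.7 ± 3.3 FPKM (SD, n = 3) in 2-cell and 17.9 ± 4.23 FPKM in 4-cell embryos. In single blastomeres the sum ranged from 13.5 to 27.4 and from 1.02 to 30.7 FPKM, respectively. Of the 20 markers, 10 reached 1 FPKM in at least 1 of the 15 blastomeres, while TNFAIP6, CD44 and GJA1 were at 0 in all 15. The 8 sperm transcripts summed to 21.7 ± 6.52 FPKM and 2.14 ± 1.02 FPKM, mostly from LDHC. Their sum ranged from 1.94 to 44.2 FPKM in single 2-cell and from 0 to 8.49 FPKM in single 4-cell blastomeres. Of the 8, 4 reached 1 FPKM in at least 1 blastomere, while AKAP3 and OAZ3 were at 0.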

How the data were processed

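Single blastomeres were lysed, and cDNA was amplified and sequenced on a HiSeq X-Ten by the authors. They mapped reads with HISAT2 to Sscrofa11.1 and deposited FPKM of 15351 genes for 42 cells, which are the values used here. Program versions, annotation release and strandedness are not given in the sources used here. The protocol in the sample labels describes another extraction than the paper. FPKM are fixed multiples of a unit per gene and cell, so reads on genes could be recovered as whole numbers (within 0.002 of a read) for 14691 of 14692 expressed genes. PCR copies are not independent molecules, so precision rests on the spread between embryos.

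FPKM were averaged over the blastomeres of each embryo. Genes reaching 1 FPKM in 3 or more cells (8116) were fitted on log2(FPKM + 1) with limma 3.58.1 (R 4.3.3), with a mean-variance trend and all 8 groups of method and stage sharing 1 spread. A call needed a Benjamini-Hochberg adjusted p under 0.05 and a 2-fold change or more. Adding 1 understates changes of low genes. The labels do not state whether embryos came from separate collections. P-values of limma thus measure the spread between the embryos of this series, pooled over groups, and not that of the 4-cell embryos alone. The 8-cell groups, with 1 embryo each, add nothing to this spread. The median SE of a log2 fold change was 0.816. On simulated data for IVF 4-cell against 2-cell (8116 genes), 31 of 50 genes changed by 4 on the log2 scale, 21 of 50 changed by 3, 4 of 50 changed by 2 and 0 of 50 changed by 1 were called, as were 4 of 7916 unchanged genes. The simulation gave a gene the same normal spread in all groups and changed only genes with a mean log2 level above 3. It therefore does not cover genes near 0 or a wider spread at the 4-cell stage.

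Members and gene lists were chosen with earlier results of these data known. Named genes are the 12 largest rises and falls, called members of the lists, and genes the study names. Genes that the table names CLTB, TOGARAM2, RAB5B, NAGLU and SYVN1, and the reference by the symbol of a list member, were left out of the lists. Gene products and starts came from the RefSeq annotation of Sscrofa11.1, whose chromosomes held the positions of all 15351 genes. For 14559 of them a start was matched. The alternatives tried were other pseudocounts, filters, scalings, embryo averages and samples in the fit, a blastomere-level fit, a fit without trend, the replicate block, and leaving out each embryo or blastomere. Python 3.11.15, numpy 2.4.6, pandas 2.3.3, pysam 0.24.0 and matplotlib 3.10.9 were used. The values of 1 gene that rose are not reported here.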

Additional observations from a re-analysis of the deposited data

Results flagged for a closer look

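IVF 4-cell blastomere 1-1 had 4367 genes above 0 FPKM, and its gap to the next lowest of the 9 4-cell blastomeres was past the critical value of Dixon's test. In all, 6 sets of values were tested this way (reads on genes, genes above 0 and mitochondrial share, in 2-cell and in 4-cell blastomeres), of which chance flags about 1 in 20. It had 5975334 reads on genes, the fewest of the 15 blastomeres, and the part of depth in this was not tested.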

How the results depend on the processing

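The number of genes called between IVF 2-cell and 4-cell embryos (90, of which 50 rose and 40 fell) changed with several settings. A filter of FPKM of at least 5 gave 166 (85 and 81), median-ratio scaling 55 (51 and 4), the mean of log2 values over blastomeres 532 (91 and 441), the median over blastomeres 295 (34 and 261), the 2 groups alone 0, the 4 IVF groups alone 49 (25 and 24), blastomeres with the embryo as a random block 611 (54 and 557) and no trend 142 (71 and 71). Leaving out an embryo or blastomere gave 24 to 729 calls, 18 to 435 rises and 3 to 294 falls, and the 729 were those without the 4-cell embryo 1. For the PA step (32) the counts were 18 with a pseudocount of 0.1, 52 with nuclear genes rescaled, 509 with median ratios, 215 with mean log2 values, 75 with medians, 601 without the 2 PA cells and 166 with the random block, and 21 to 71 on leaving out IVF embryos or blastomeres. For the difference of the steps (0) there were 10 with median ratios, 6 without the 2 PA cells, and 0 to 72 on leaving out embryos or blastomeres. Newly detected genes (20) were 2 if more than 1 blastomere had to pass and 28 to 148 on leaving out an embryo. Genes no longer detected (8) were 25 with limits of 0.5 and 5 FPKM, 4 with limits of 2 and 20 FPKM, 0 if more than 1 blastomere had to pass, and 16 to 45 on leaving out an embryo. The detection rules ask less of fewer embryos. For the other changes the cause was not tested. Among single genes, the log2 fold changes of DNMT1 (0.48) and IGF2BP3 (1.13) reversed with median-ratio scaling.

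Embryo numbers are shared between groups only as numbers, since deviations of same-numbered 2-cell and 4-cell embryos had an r of -0.0018, 0.0119 and 0.0089. With the replicate block 85 genes were called, of which 49 rose and 36 fell. The mitochondrial mRNA share differed by 6.97 to 13.6 percentage points on leaving out an embryo. With 3 embryos a stage the median SE was 0.816, and 0 of 50 changes of 2-fold were called in simulated data. Those data had the same spread in all groups, which the embryos need not have.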

Other observations

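Immediate-early and stress genes had 12 tested members, with a median log2 fold change of 0.42. None of them was called by limma, which in so short a list is near the 1.11% of all genes tested. The summed FPKM of the list's 25 genes was 18.9, 14.7 and 7.87 in the 2-cell and 18.2, 288 and 79.5 in the 4-cell embryos. It was 67.6 to 468 FPKM in the 5 4-cell blastomeres 2-2, 2-3, 3-1, 3-2 and 3-4. It was 37.1 FPKM in 3-3 and 8.34 to 25 FPKM in embryo 1, against 7.33 to 19.6 FPKM in 2-cell blastomeres. Those 5 were above the 2-cell range in 39 to 45 of the 50 rising genes. Blastomere 1-4 was above it in 43 of the 50, with a list sum of 25 FPKM, and 3-3 in 8. The part of these stress genes in the rises was not tested. Heat shock proteins and chaperonins (58 tested) had a median of -0.35, genes of the cell cycle and M phase (57 tested) also -0.35, and other chromatin modifiers (55 tested) 0.27. Each of these lists had 0 called, near the 1.11% of all genes tested. Without the 4-cell embryo 1, chromatin modifiers had 3 genes that rose and 2 that fell, and heat shock proteins 2 and 1, shares near or below the 5.36% and 3.62% of all genes tested that rose and fell in that fit.

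Genes of the PRAME family, expressed in germ cells and early embryos, were looked at after their values had been seen. The PRAME family member 12 gene ENSSSCG00000003444 was listed at 0 in the 3 IVF 2-cell embryos and had 0.00828, 58.9 and 0.66 FPKM in the 4-cell embryos (log2 fold change 2.22 ± 1.08, adjusted p = 0.292 by limma), and 86.2 ± 60.6 FPKM (SD, n = 3) in PA 4-cell embryos. ENSSSCG00000039417, a PRAME family member 12-like gene, had 2.04, 2.06 and 34.2 FPKM in IVF 4-cell and 85.1 ± 42.2 FPKM in PA 4-cell embryos. The difference of the IVF and PA steps did not pass for either gene (adjusted p = 0.893). The other family members by RefSeq overlap that reached 1 FPKM in an embryo changed less or by a similar amount in IVF embryos. They were ENSSSCG00000033480 (log2 fold change 2.47), ENSSSCG00000040680 (1.11), ENSSSCG00000037632 (0.26) and ENSSSCG00000033821 (0.15). None of the family was called in IVF embryos. ENSSSCG00000002969 overlaps a second F-box only 27-like RefSeq gene over only 6.65% of its length, so its name is uncertain. It had 17.4, 72.8 and 46.5 FPKM in IVF 4-cell embryos and did not pass (4.51 ± 1.14, adjusted p = 0.0572).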
